A study of Mus musculus with 8 samples.

Results

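Interferon-stimulated genes (ISGs) are the genes that cells switch on when interferon binds its receptor. The 31 ISGs described here were taken by symbol from a list chosen with earlier results of these data known. Their reads were summed per NCBI gene ID, 31 of the 46113 gene IDs in the files. Exons were given for 29 of them, and all 29 passed the filter on low counts. The remaining pair, Mx1 and Mx2, had reads per gene only. RNA came from 2 sorted fractions of C57BL/6 mouse bone marrow, with 4 libraries each. Both fractions were lineage-negative and carried Sca1, c-Kit and CD150. HSC (hematopoietic stem cell) libraries held CD34-negative cells, and HPC (hematopoietic progenitor cell) libraries held CD34-positive cells. The mice were 8 to 10 weeks old, and no agent or altered gene is named for either fraction. A protocol that speaks of HSC only gives 5000 sorted cells. Separate animals are not stated, and the p-values then cover only the spread among these libraries, which may be technical.

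Type I interferons bind a receptor made of Ifnar1 and Ifnar2, and type II interferon binds a receptor made of Ifngr1 and Ifngr2. Receptor-bound JAK kinases phosphorylate STAT proteins. A complex that holds Stat2 and Irf9 binds the interferon-stimulated response element (ISRE), and STAT pairs bind the gamma-activated site (GAS). ISG products block virus entry, degrade or bind foreign RNA, attack pathogen vacuoles and dampen the signal itself. Stem cells are known to express a set of ISGs without infection, and interferon is known to push dormant HSC into division.

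HSC libraries held 16291733 to 19070313 exon reads and HPC libraries 18223082 to 20564901. Levels are given as CPM, exon reads of a gene scaled to a common library size. A gene with 0 reads could still reach 0.146 to 0.184 CPM in a library, the worth of 3 reads, a limit that covers counting error only. Slamf1, which encodes CD150, averaged 37.6 CPM in HSC and 3.14 CPM in HPC although both gates required CD150. Cd34 averaged 120 CPM in HSC and 1275 CPM in HPC. Kit averaged 924 CPM in HSC and 746 CPM in HPC, with no call (adjusted p = 0.080). Ly6a, which encodes Sca1 and is itself induced by interferon, averaged 131 CPM in HSC and 72.1 CPM in HPC, with 50.2% of its reads uniquely placed.

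The comparison asks how ISG transcripts differ between the HSC and HPC fractions. Of the 29 ISGs with exons, 15 were higher in HSC, 4 were lower and 10 had no call (edgeR's quasi-likelihood test with p-values adjusted by Benjamini-Hochberg over 12751 genes, threshold 0.05). Over all those genes 37.1% had a call, 19.6% as higher in HSC and 17.6% as lower. The share of ISGs called higher, 51.7%, stood above that background and the share called lower, 13.8%, near it. The list was chosen with earlier results of these data known, and the part of that choice in these shares was not tested. The median ISG was 0.44 higher in HSC on the log2 scale, against 0.00 over all genes. All 4 HSC libraries lay above all 4 HPC libraries for 15 ISGs (19.5% of all genes), and below them for 3 (17.2% of all genes), where 36.7% of all genes showed either separation. Most differences were small: 2 ISGs called higher, Iigp1 and Ifitm1, reached 2-fold, as did 1 called lower, Ifi27. All 3 guanylate-binding proteins were higher, while the OAS enzymes split in direction and the feedback genes Usp18 and Isg15 had no call. In bulk RNA, fewer cells with a transcript and less of it per cell cannot be told apart.

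**Figure D1:**
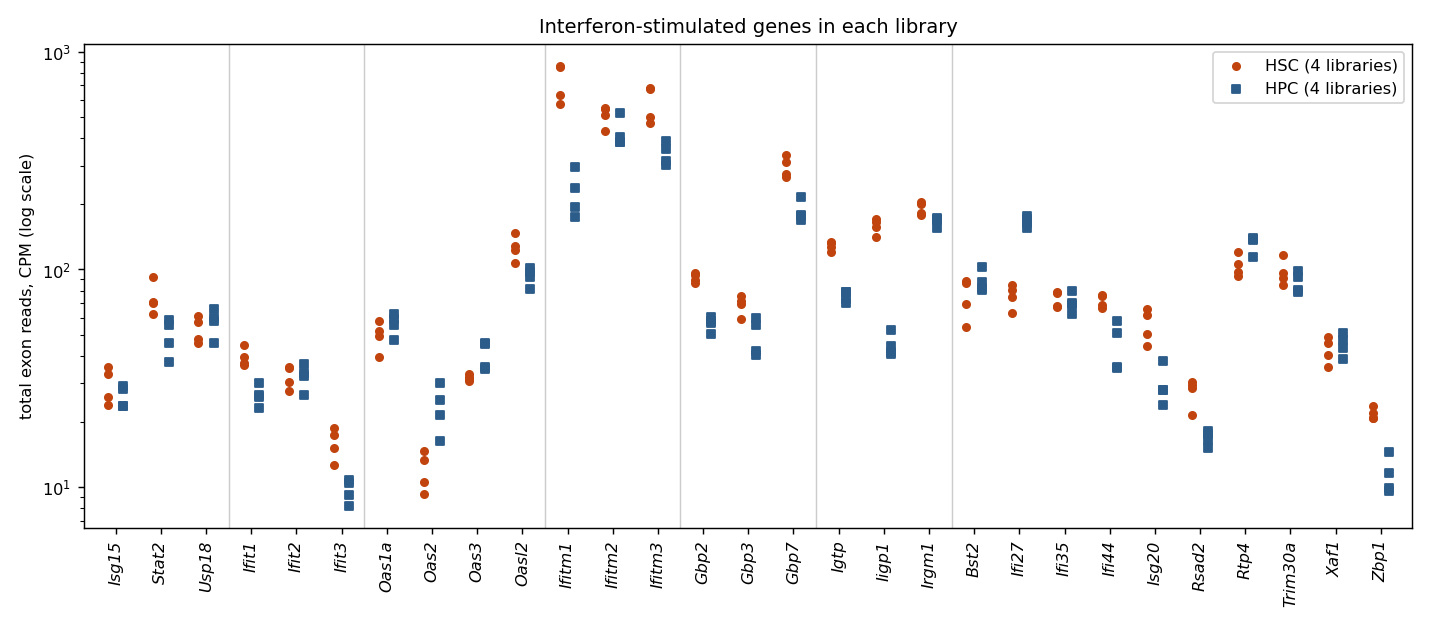
CPM of total exon reads on a log axis for the 29 ISGs with exons, grouped by role, with 1 point for each of the 4 HSC libraries (orange circles) and each of the 4 HPC libraries (blue squares). The groups do not overlap for Iigp1, Ifitm1, Igtp, Gbp2 and Ifi27, while Isg15, Usp18, Ifit2, Ifi35 and Xaf1 overlap.

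Promoter windows are shown to compare the members with each other. Interferon acts on genes through the ISRE and GAS, so a share above that of all genes may follow from how ISGs are defined. RefSeq windows (GRCm38.p6), cut to the 250 bases before the transcript start, were found for 23 of the 31 ISGs. ISRE letters, GAAA, any 2 bases and GAAA again on either strand, stood in the window of 15 of these 23 genes (65.2%), against 3.46% of 27025 genes with a window. GAS letters, TTC, any 3 bases and GAA, stood in 6 of 23 (26.1%), against 8.13% of genes. Both were found for 4 ISGs, and they overlapped in 1 window. The 7 windows printed next were chosen after the values were seen. They read 5′ to 3′ on the gene's strand with ISRE letters in capitals. ISGs with neither a call nor a match, such as Ifi35, are not among them. Gbp2 (chr3:142620413-142620662 on the plus strand), Igtp (chr11:58199306-58199555 on the plus strand) and Ifit3 (chr19:34583279-34583528 on the plus strand) were higher in HSC and hold matches. Ifitm1 (chr7:140967826-140968075 on the plus strand) was among the highest changes and its window holds none. The windows of Ifitm1 and Ifit3 lie inside the gene spans of the files and precede an internal start. For 19 of the 28 windows of the ISGs, the bases just after the start lie in a GENCODE M21 transcript of the gene. Isg15 (chr4:156200819-156201068 on the minus strand) and Irgm1 (chr11:48871421-48871670 on the minus strand) hold overlapping matches and had no call. Oas3 (chr5:120777660-120777909 on the minus strand) holds a match and was lower in HSC.
Gbp2: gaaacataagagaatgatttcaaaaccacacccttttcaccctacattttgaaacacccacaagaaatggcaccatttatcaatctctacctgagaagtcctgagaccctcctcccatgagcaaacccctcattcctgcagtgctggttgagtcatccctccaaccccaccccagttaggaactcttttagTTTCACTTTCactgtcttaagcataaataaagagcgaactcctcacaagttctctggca
Igtp: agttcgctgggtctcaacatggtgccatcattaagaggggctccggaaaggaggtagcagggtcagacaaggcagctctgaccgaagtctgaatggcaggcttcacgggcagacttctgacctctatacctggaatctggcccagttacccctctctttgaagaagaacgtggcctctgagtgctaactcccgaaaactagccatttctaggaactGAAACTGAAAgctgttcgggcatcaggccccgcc
Ifit3: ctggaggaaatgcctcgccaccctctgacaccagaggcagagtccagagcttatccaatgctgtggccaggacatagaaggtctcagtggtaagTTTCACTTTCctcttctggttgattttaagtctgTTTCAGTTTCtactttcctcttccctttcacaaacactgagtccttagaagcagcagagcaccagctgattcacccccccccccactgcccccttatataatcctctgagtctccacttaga
Ifitm1: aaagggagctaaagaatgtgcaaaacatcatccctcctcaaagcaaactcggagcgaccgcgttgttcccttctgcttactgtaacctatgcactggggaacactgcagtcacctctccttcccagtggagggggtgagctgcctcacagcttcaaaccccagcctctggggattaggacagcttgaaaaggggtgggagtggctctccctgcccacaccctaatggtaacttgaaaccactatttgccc
Isg15: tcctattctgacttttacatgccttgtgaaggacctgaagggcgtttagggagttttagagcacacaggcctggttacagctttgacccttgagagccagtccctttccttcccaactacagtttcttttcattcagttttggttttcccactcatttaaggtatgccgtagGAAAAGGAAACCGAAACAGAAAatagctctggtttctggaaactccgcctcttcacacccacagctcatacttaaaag
Irgm1: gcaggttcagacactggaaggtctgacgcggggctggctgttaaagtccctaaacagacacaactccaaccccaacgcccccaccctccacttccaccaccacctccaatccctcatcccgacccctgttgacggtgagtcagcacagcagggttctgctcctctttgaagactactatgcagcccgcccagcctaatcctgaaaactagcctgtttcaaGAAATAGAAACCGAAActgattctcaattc
Oas3: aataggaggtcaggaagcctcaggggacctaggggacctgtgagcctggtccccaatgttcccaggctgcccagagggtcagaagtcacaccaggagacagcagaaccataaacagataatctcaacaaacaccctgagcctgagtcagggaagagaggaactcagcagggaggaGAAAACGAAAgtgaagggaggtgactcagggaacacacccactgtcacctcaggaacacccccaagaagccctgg
By outcome, ISRE letters stood in 8 of the 13 windowed ISGs called higher, in the 1 called lower and in 6 of the 9 without a call. These letter matches describe the windows and are not measured binding sites.

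The immunity-related GTPases are interferon-induced proteins that load onto the membranes of pathogen vacuoles. Iigp1, an effector that helps break such vacuoles, lies at chr18:60373621-60392634 (mm10, plus strand) and had 170, 156, 165 and 141 CPM in HSC, against 41.9, 52.7, 44.7 and 40.9 CPM in HPC. All 4 HSC libraries were well above all 4 HPC libraries. It was 3.51-fold higher in HSC, a log2 change of 1.81 ± 0.11 (SE), the largest positive change among the 29. Igtp, also called Irgm3 and grouped with the family's regulators (chr11:58199556-58207592), had 120, 134, 127 and 132 CPM in HSC, against 69.8, 79.1, 72.8 and 79.1 CPM in HPC. Both groups were tight and did not overlap, at a log2 change of 0.77 ± 0.09 (adjusted p = 9.5e-06). Igtp appears on 2 rows of the files, its chromosome and an alternate locus. Of its exon reads, 1 of 9600 in HSC and 0 of 5652 in HPC were uniquely placed. Irgm1, another regulator that guards the cell's own membranes, averaged 191 ± 13.1 CPM over the 4 HSC libraries and 167 ± 8.48 CPM over the 4 HPC libraries (SD). Every HSC library was above every HPC library, yet the difference of 0.19 ± 0.09 had no call (adjusted p = 0.097).

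Guanylate-binding proteins are large GTPases that coat pathogens and their vacuoles, and all 3 on the list were higher in HSC. Gbp2 (chr3:142620663-142638008) had 94.1, 89.5, 96.0 and 87.0 CPM in HSC, against 50.8, 56.6, 58.0 and 60.4 CPM in HPC. Each HSC library exceeded each HPC library, with a log2 change of 0.70 ± 0.10. Gbp7 was the most abundant of the 3 in CPM, at 273, 265, 337 and 311 in HSC and 170, 215, 176 and 177 in HPC, again without overlap. Its log2 change was 0.69 ± 0.11. Gbp3 averaged 69.0 ± 6.83 CPM in HSC, against 49.7 ± 9.71 CPM in HPC. One HPC library lay above the lowest HSC library, and the change of 0.47 ± 0.14 was called (adjusted p = 0.016) but lost without HSC replicate 1 or without HPC replicate 3. Leaving out each library gave changes of 0.38 to 0.57.

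IFITM proteins sit in endosomal and surface membranes and hinder virus entry. They were the most abundant ISGs per length: Ifitm3 averaged 897 ± 171 RPKM in HSC and 527 ± 63.1 RPKM in HPC (CPM per kilobase of exon), while outside the family Bst2 was highest in HSC, at 97.3 RPKM in HSC and 115 RPKM in HPC, and Ifi27 was highest in HPC, at 56.98 RPKM in HSC and 125 RPKM in HPC. Ifitm1 (chr7:140967429-140969828) had 851, 635, 574 and 860 CPM in HSC, against 294, 194, 175 and 237 CPM in HPC. The lowest HSC library was above the highest HPC library by a wide margin, and the gene was 3.24-fold higher in HSC, a log2 change of 1.70 ± 0.17 (adjusted p = 2.1e-06). Ifitm3 had 672, 500, 471 and 681 CPM in HSC, against 359, 300, 316 and 390 CPM in HPC, also without overlap. Its log2 change was 0.77 ± 0.13. Ifitm2, which lies beside Ifitm1, averaged 511 ± 55.6 CPM in HSC and 424 ± 65.7 CPM in HPC. These groups overlapped, and the change of 0.27 ± 0.12 had no call (adjusted p = 0.090), though 6 alternatives gave one, among them the fits without HSC replicate 3 and without HPC replicate 4. Leaving out each library gave 0.21 to 0.38.

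IFIT proteins bind foreign RNA at its 5′ end, and 2 of the 3 were higher in HSC. Ifit3 averaged 15.97 ± 2.65 CPM in HSC and 9.67 ± 1.16 CPM in HPC, a log2 change of 0.72 ± 0.18 with no overlap. On exon-exon reads its groups overlapped and the change was 0.26, with no call (adjusted p = 0.68). Ifit1 had 37.2, 36.4, 45.2 and 39.5 CPM in HSC, against 26.5, 25.9, 30.0 and 23.1 CPM in HPC. Every HSC library was above every HPC library, with a log2 change of 0.59 ± 0.13 (adjusted p = 0.0024). Of its reads, 3.71% in HSC and 3.54% in HPC were uniquely placed, or 110 reads in HSC and 70 in HPC, and on these alone the change of 0.63 ± 0.46 had no call (adjusted p = 0.32). Ifit1 lies within Ifit1bl1 on the other strand, and whether counting used strand is not given in the sources used here. Ifit2 averaged 32.3 CPM in both HSC and HPC, with an SD of 3.79 in HSC and 4.23 in HPC and overlapping groups.

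The OAS enzymes make a second messenger that turns on an RNA-degrading enzyme when they meet double-stranded RNA. This family split in direction: 1 of 4 was higher in HSC and 2 were lower. Oas2 (chr5:120730333-120749874) had 13.3, 10.6, 14.7 and 9.28 CPM in HSC, against 25.1, 21.4, 30.0 and 16.4 CPM in HPC. All HSC libraries were below all HPC libraries, with a log2 change of -0.95 ± 0.21 (adjusted p = 0.0021). Its neighbour Oas3 had 30.9, 31.3, 33.2 and 32.2 CPM in HSC, against 45.5, 35.0, 46.2 and 35.6 CPM in HPC. The HSC values were closely grouped below the HPC values, but the change of -0.35 ± 0.13 was near the threshold (adjusted p = 0.049). Its call was lost in 13 alternatives of the same direction and on intron reads, where the change was 0.39. The 13 included the fits without any 1 of the HSC libraries and without HPC replicate 1 or 3. Leaving out each library in turn gave changes of -0.41 to -0.29. Oasl2, an OAS-like protein, averaged 126 ± 16.4 CPM in HSC and 93.1 ± 8.78 CPM in HPC, a log2 change of 0.44 ± 0.11 with no overlap. Oas1a averaged 49.8 ± 7.57 CPM in HSC and 56.2 ± 6.54 CPM in HPC. These groups overlapped, with no call.

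Among the signal and feedback genes, Stat2, which joins Irf9 in the ISRE-binding complex, had 70.3, 71.1, 91.9 and 62.4 CPM in HSC, against 58.8, 46.2, 55.3 and 37.5 CPM in HPC. The HSC libraries were all higher, with a log2 change of 0.58 ± 0.15 (adjusted p = 0.0081). Isg15, a ubiquitin-like protein that is joined to other proteins, averaged 29.7 ± 5.58 CPM in HSC and 26.1 ± 3.01 CPM in HPC. Usp18, which removes Isg15 and blocks the type I receptor, averaged 53.0 ± 7.42 CPM in HSC and 57.3 ± 8.45 CPM in HPC. Neither had a call, at adjusted p of 0.39 for Isg15 and 0.56 for Usp18. Of the Isg15 reads, 46.0% in HSC and 46.1% in HPC were uniquely placed.

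The other antiviral effectors were mixed, with 4 higher, 2 lower and 4 without a call among 10. Zbp1, a sensor of Z-form nucleic acid that can start cell death, had 23.6, 20.7, 20.7 and 21.9 CPM in HSC, against 11.6, 14.5, 9.97 and 9.61 CPM in HPC. Isg20, an exonuclease of RNA, had 65.8, 44.4, 50.5 and 61.5 CPM in HSC, against 28.1, 38.0, 23.9 and 27.8 CPM in HPC. For both genes every HSC library was above every HPC library, with log2 changes of 0.93 ± 0.17 for Zbp1 and 0.91 ± 0.16 for Isg20. Rsad2 (viperin), which makes a chain-terminating nucleotide, averaged 27.5 ± 4.14 CPM in HSC, against 16.8 ± 1.27 CPM in HPC. Ifi44 averaged 71.7 ± 4.99 CPM in HSC and 45.0 ± 11.4 CPM in HPC. These were higher by 0.71 ± 0.15 and 0.67 ± 0.16 on the log2 scale, without overlap.

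Ifi27, a small mitochondrial and nuclear-membrane protein (chr12:103434182-103440245), moved the other way, with 84.7, 75.1, 62.9 and 80.3 CPM in HSC, against 163, 177, 154 and 170 CPM in HPC. No HSC library came near an HPC library, and the level in HSC was 0.456 of that in HPC, a log2 change of -1.13 ± 0.10 (adjusted p = 8.9e-07). The gene lies entirely inside the span of Ifi27l2a on the opposite strand, whose own log2 change was -1.93 ± 0.17, and whether reads of the pair mix was not tested. Rtp4, a chaperone of receptors, averaged 104 ± 11.5 CPM in HSC and 132 ± 12.2 CPM in HPC. Its groups overlapped, the change of -0.34 ± 0.10 was called (adjusted p = 0.020), and the call was lost without HSC replicate 2, HSC replicate 3 or HPC replicate 2, where leaving out each library gave -0.41 to -0.29.

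Bst2 (tetherin), which holds budding virus at the surface, averaged 74.8 ± 16.2 CPM in HSC and 88.4 ± 10.1 CPM in HPC. Ifi35 averaged 72.9 ± 6.15 CPM in HSC, against 70.4 ± 7.19 CPM in HPC. Xaf1, a promoter of cell death, averaged 42.7 ± 5.78 CPM in HSC and 45.3 ± 5.30 CPM in HPC. Their groups overlapped and none had a call. The Mx GTPases trap viral ribonucleoprotein, and neither had a call on gene reads (16704 genes tested, 32.5% called). Mx1 averaged 4.55 ± 1.66 CPM of gene reads in HSC, against 4.66 ± 0.858 in HPC, and Mx2 averaged 1.94 ± 0.950 in HSC, against 1.84 ± 0.136 in HPC. Both pairs of groups overlapped.

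**Figure D2:**
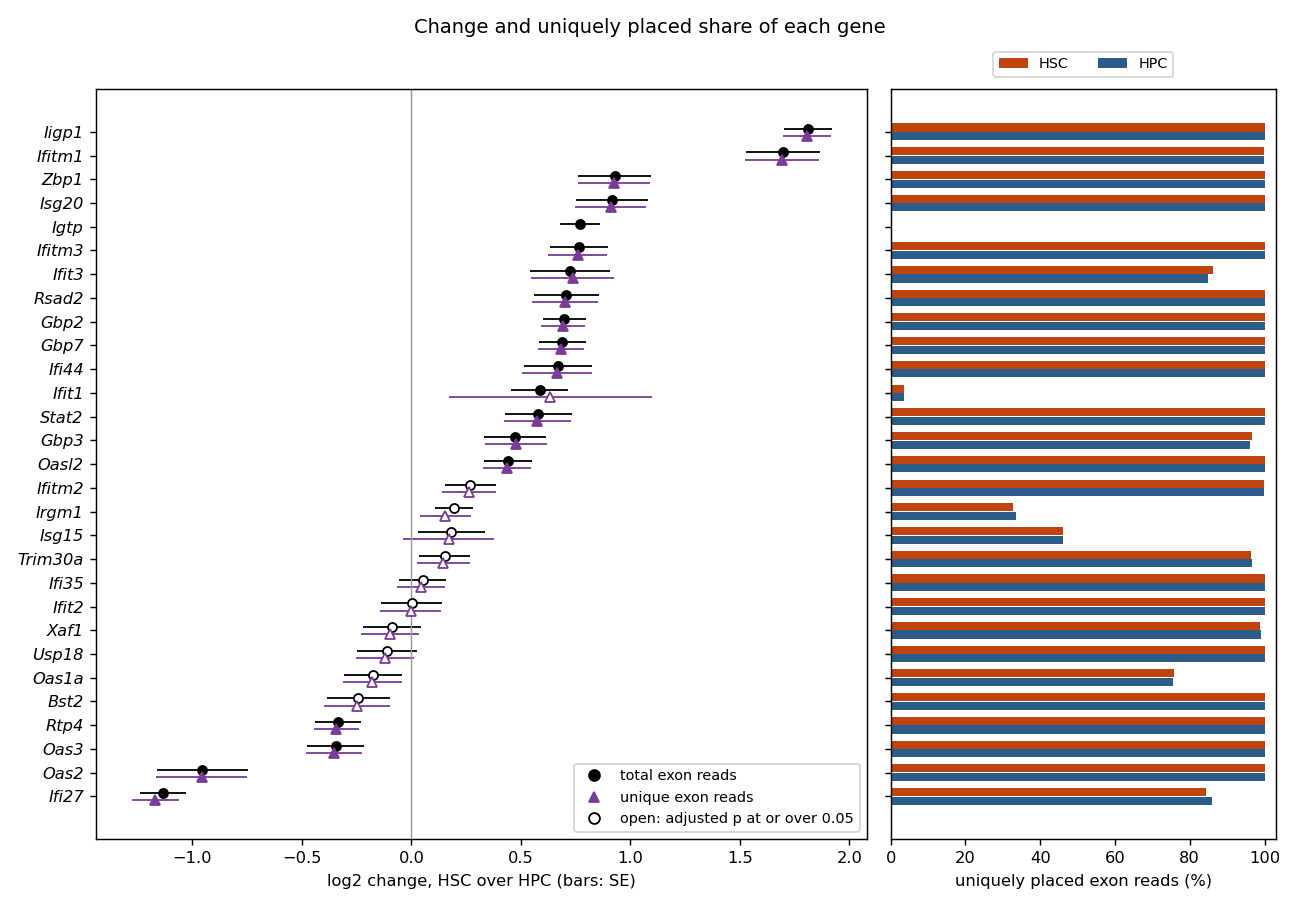
Left, log2 change of HSC over HPC with SE for each ISG with exons, from total exon reads (black circles) and uniquely placed exon reads (purple triangles), open where the adjusted p was at or over 0.05. Right, the percentage of exon reads that were uniquely placed in HSC (orange) and HPC (blue): total and unique changes lie close together except that Ifit1 widens and Igtp has no unique value.

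Total and uniquely placed exon reads gave much the same picture. In 22 of the 29 ISGs over 90% of exon reads were uniquely placed in both fractions, and in 19 over 99%. On unique reads 28 ISGs were tested, with 13 higher in HSC (19.0% of all genes in that fit) and 4 lower (17.4%), and 17 of the 19 calls were kept. Ifit1 lost its call and Igtp could not be tested. Irgm1 had 32.6% of its reads uniquely placed in HSC and 33.4% in HPC, and Oas1a 75.7% in HSC and 75.6% in HPC. Ifit3 had 86.1% in HSC and 84.8% in HPC, and its call stood on unique reads. Of the 50-base words in the GENCODE M21 transcripts of each gene, 57.6% of those of Oas1a, 51.2% of those of Ifit3 and 48.5% of those of Ifitm2 also occur in another gene. These were the highest shares, yet 99.93% of Ifitm2 reads in HSC and 99.96% in HPC were uniquely placed. Genes with few unique reads shared fewer words: 11.8% for Igtp, 7.13% for Ifit1, 3.96% for Isg15 and 0.956% for Irgm1. Irgm1, like Igtp, also has alternate-locus rows. Why reads were not uniquely placed was not tested.

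Exon-exon reads, which span a splice junction, gave 13 ISGs higher in HSC (16.1% of all genes in that fit) and 2 lower (14.9%), and Ifit1, Ifit3, Oas3 and Rtp4 had no call there. Intron reads lie in the gene but outside its given exons. On these, where 20.2% of genes had a call, 6 ISGs were higher in HSC (10.8% of all genes in that fit) and 1 was lower (9.43%) among 29 tested. Iigp1 had 207, 193, 204 and 188 CPM of intron reads in HSC, against 38.3, 41.5, 41.9 and 47.2 in HPC, a log2 change of 2.23 ± 0.13. These groups lay far apart, as on exon reads. Ifitm1, Igtp, Isg20, Gbp7 and Ifi44 were higher by 1.37, 1.26, 1.19, 1.10 and 0.70 on the log2 scale, and Ifi27 fell by 0.95. Each of these had its call in the same direction on exon reads. Of the Ifi27 intron reads, 578 in HSC and 1111 in HPC, 0 were uniquely placed in every library. Igtp had 17 to 34 uniquely placed of 338 to 413 intron reads per HSC library. Per HPC library it had 8 to 14 of 142 to 173.

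**Figure D3:**
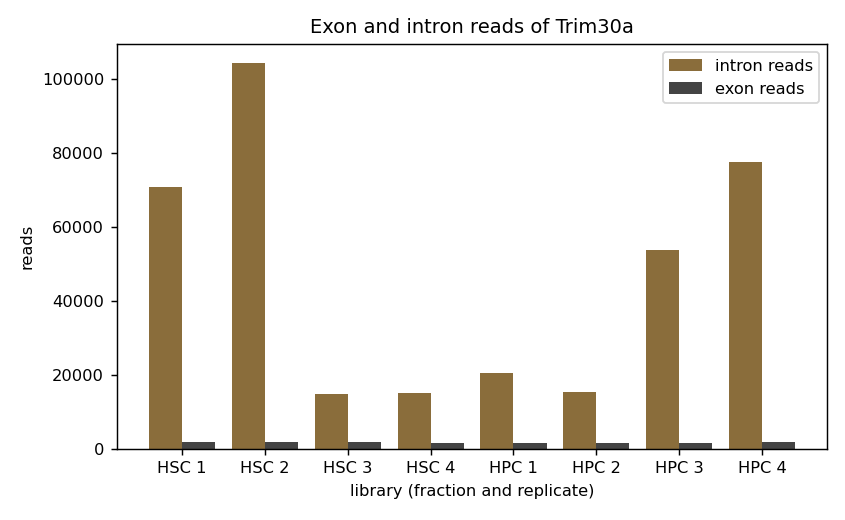
Intron reads (brown) and exon reads (dark grey) of Trim30a in each of the 8 libraries. Intron reads are tallest in HSC 2 and low in HSC 3, HSC 4, HPC 1 and HPC 2, while exon reads hardly differ.

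Trim30a, an inhibitor of inflammatory signalling, had no call on exon reads, with 97.5 ± 13.7 CPM in HSC and 87.7 ± 9.39 CPM in HPC. Its introns took far more reads than its exons, with 70860, 104393, 14765 and 15110 intron reads in HSC, against 20539, 15321, 53784 and 77532 in HPC. Values differed several-fold within each fraction, and the fractions overlapped (adjusted p = 0.88). Over all libraries it had 372304 intron reads and 13802 exon reads, the most intron reads of any gene with exons. Intron reads made up 96.6% of its gene reads in HSC and 96.2% in HPC.

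Summed over the 29 genes, the ISGs came to 4192, 3553, 3539 and 4178 CPM in HSC, against 2714, 2617, 2516 and 2853 CPM in HPC. Every HSC library was higher. The 3 IFITM genes made up 41.7% to 49.9% of that sum in HSC and 34.5% to 40.3% in HPC, and without them the sums were 1904 to 2116 CPM in HSC and 1642 to 1715 CPM in HPC. HSC replicate 2 was the lowest HSC library for 12 of the 29 genes and HSC replicate 1 the highest for 13. Among HPC libraries, replicate 3 was the lowest for 11 and replicate 4 the highest for 12.

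Genes closely related to the listed ISGs, mostly of the same families, were compared next. Of 35 relatives on a list, 21 were tested, with a median log2 change of 1.22. Higher in HSC were 14 (66.7%, against 19.6% of all genes), and 1 was lower (4.76%, against 17.6%). Gbp8 had 30.4, 30.0, 41.3 and 33.0 CPM in HSC, against 2.38, 4.02, 4.35 and 1.88 CPM in HPC. Gbp9 had 40.8, 34.2, 45.8 and 25.7 CPM in HSC, against 2.64, 1.44, 4.12 and 2.76 CPM in HPC. HSC libraries were far above HPC libraries for both, with log2 changes of 3.41 ± 0.25 for Gbp8 and 3.74 ± 0.28 for Gbp9. Gm4951, which lies near Iigp1, averaged 75.3 CPM in HSC and 11.8 CPM in HPC, a log2 change of 2.68 ± 0.13, with 23.4% of its reads uniquely placed.

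Some further relatives were chosen after their values were seen. Gbp10, Gbp4 and Gbp6 were higher by 4.86, 4.27 and 1.77 on the log2 scale. With Gbp8 and Gbp9 they lie on chromosome 5, whereas Gbp2, Gbp3, Gbp7 and Gbp5 lie on chromosome 3, where changes ran from 0.47 to 0.79. Thus all 9 guanylate-binding protein genes tested on these lists were higher in HSC, and the 5 on chromosome 5 had larger changes than the 4 on chromosome 3, a difference that was not tested. Ifitm7 (3.15), Ifit1bl1 (1.53) and Irgm2 (1.22) were also higher on the log2 scale, and of the Irgm2 reads 10.8% were uniquely placed.

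**Figure D4:**
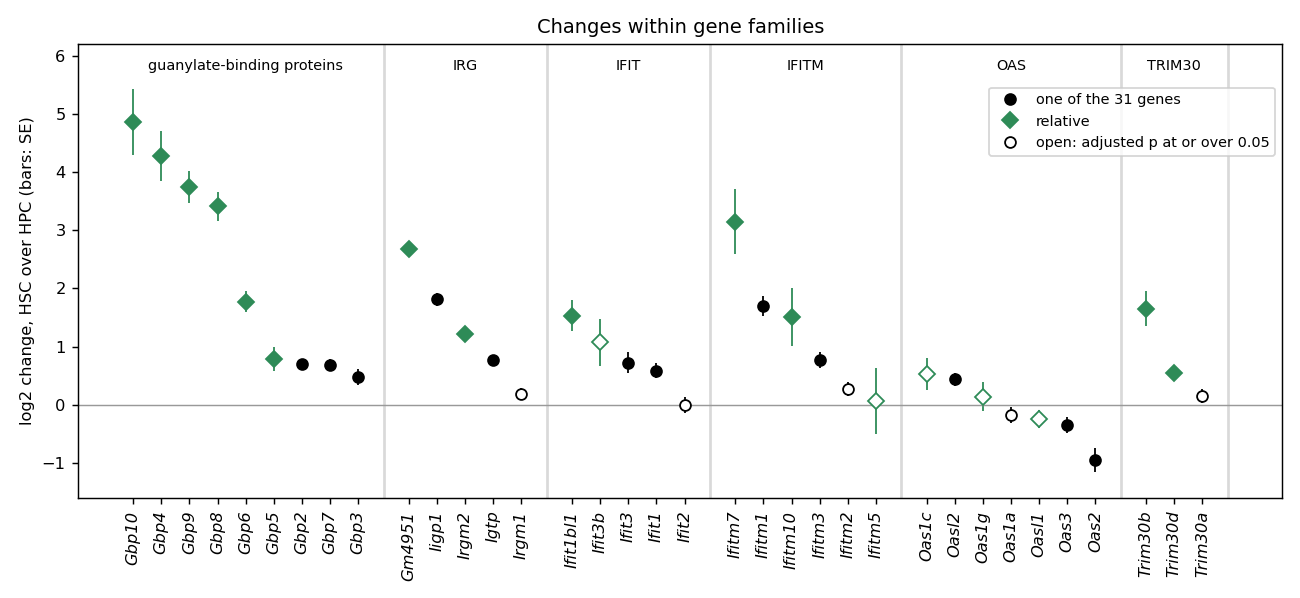
Log2 change of HSC over HPC with SE for the listed ISGs (black circles) and their relatives (green diamonds) in 6 gene families, open where the adjusted p was at or over 0.05. Guanylate-binding proteins all lie above 0, from 0.47 to 4.86, while the OAS family spans both sides of 0.

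Upstream of the ISGs, interferons themselves were hardly detected. Of 21 ligand genes 1 passed the filter, Ifnz, which averaged 0.864 CPM in HSC, against 0.270 CPM in HPC, and its call was lost in 15 of 19 alternatives, including each fit that left out 1 library. Ifnb1 and Ifng were chosen after their values were seen: Ifnb1 had 0 reads in HSC and 7 in HPC, and Ifng had 19 in HSC and 8 in HPC. Of 5 receptor genes tested, 1 was higher (20%) and 3 were lower (60%), against 19.6% and 17.6% of all genes. Ifnar2, a type I receptor chain, had 71.9, 78.6, 75.7 and 78.6 CPM in HSC, against 186, 152, 166 and 164 CPM in HPC. All HSC libraries were far below the HPC libraries, with a log2 change of -1.13 ± 0.09. Il10rb, a chain of the type III receptor, fell by 0.91 and Ifngr2 by 0.42 on the log2 scale, and Ifngr1 was higher by 0.26 (adjusted p = 0.043), a call lost in 15 alternatives, among them the fits without any 1 library but HPC replicate 2, with changes of 0.20 to 0.30.

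Of the 6 JAK kinases, STATs and Irf9, 3 were higher in HSC (50%, against 19.6% of all genes) and none was lower (17.6% of all genes). Jak2, a kinase of the type II receptor, averaged 77.1 CPM in HSC, against 48.3 CPM in HPC. HSC libraries were all higher, with a log2 change of 0.67 ± 0.16 (adjusted p = 0.0044). Jak1, a kinase of both receptors, was higher by 0.30 and lost its call in 14 alternatives, among them the fits without any 1 library but HSC replicate 1, with changes of 0.21 to 0.36. Of 8 interferon regulatory factors, 2 were higher (25%) and 3 lower (37.5%), against 19.6% and 17.6% of all genes. Irf8, a driver of dendritic cell and monocyte fate, had 13.2, 33.7, 19.9 and 13.9 CPM in HSC, against 145, 91.7, 89.7 and 107 CPM in HPC. It was much lower in HSC throughout, with a log2 change of -2.42 ± 0.26. Irf5 fell by 0.74, while Irf2 was higher by 0.34.

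Among 8 negative regulators, 1 was higher (12.5%) and 2 were lower (25%), against 19.6% and 17.6% of all genes. Socs1, an inhibitor of JAK kinases, was higher by 0.59, and Irf2bp2 and Ptpn6 fell by 0.98 and 0.28 on the log2 scale. The Socs1 call was lost without HSC replicate 1, and that of Ptpn6 without HSC replicate 1 or 2 or HPC replicate 1 or 2. Of 14 sensors of foreign RNA and DNA, 2 were higher (14.3%) and 3 lower (21.4%), near the 19.6% and 17.6% of all genes. Tmem173 (STING), the adaptor of DNA sensing, had 37.3, 35.3, 39.9 and 37.9 CPM in HSC, against 106, 98.5, 101 and 110 CPM in HPC. Both groups were tight and wide apart, with a log2 change of -1.47 ± 0.10. Mb21d1 (cGAS), the DNA sensor before it, fell by 1.08, and Ifih1 (MDA5), a sensor of long double-stranded RNA, was higher by 0.92. Tlr7, an RNA sensor of endosomes, had 0 to 0.402 CPM in HSC, around the worth of 3 reads, against 10.2 to 19.3 CPM in HPC.

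A further 44 interferon-induced genes were tested, and 9 were higher in HSC and 9 lower, 20.5% each, close to the background shares. Uba7, which activates Isg15, had 222, 227, 226 and 196 CPM in HSC, against 115, 122, 113 and 106 CPM in HPC. The groups were well separated, with a log2 change of 0.93 ± 0.09. Tap2, a chain of the peptide transporter of antigen presentation, fell by 0.92 on the log2 scale, with 0% of its reads uniquely placed. Slfn2 and Tgtp2 were higher by 2.30 and 0.95, with 1.53% and 0.0127% of their reads uniquely placed. The share called higher in this broader list was below that of the 29 ISGs, a difference that was not tested.

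**Figure D5:**
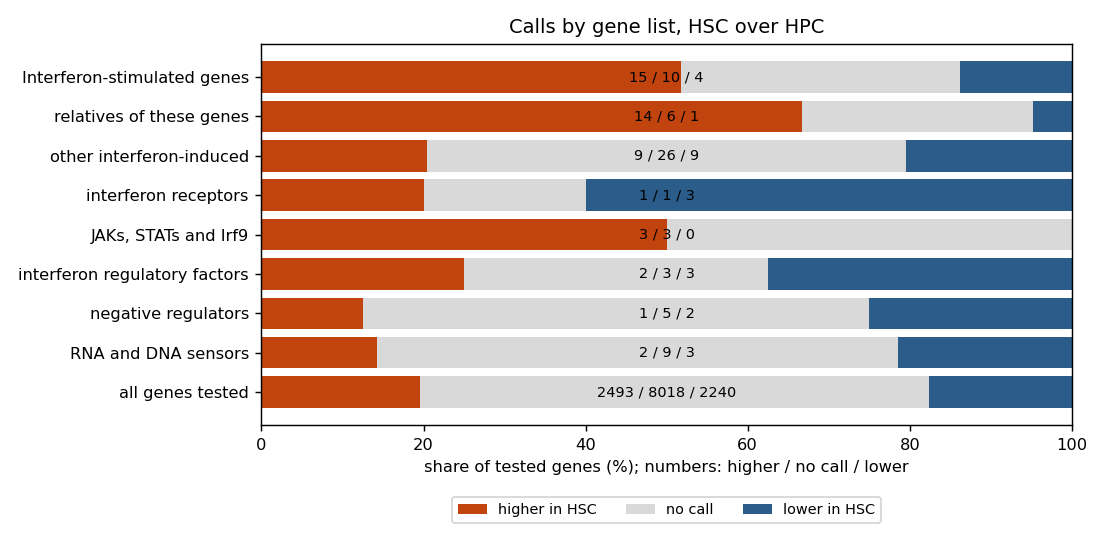
Percentage of tested genes called higher in HSC (orange), not called (grey) and called lower in HSC (blue) for the ISGs, each pathway list and all genes tested, with the numbers higher, no call and lower on each bar. The orange part is 51.7% for the ISGs and 66.7% for their relatives, against 19.6% for all genes tested.

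Sums of cell markers lay apart between the fractions, except those of macrophages, of neutrophils and monocytes, and of B cells, which overlapped. The part of any of these markers in the ISG result was not tested. Of 9 long-term stem cell markers tested all were higher in HSC, with sums of 1108 to 1374 CPM in HSC and 267 to 339 CPM in HPC. All 6 progenitor markers were lower, with sums of 101 to 214 CPM in HSC and 3932 to 4824 CPM in HPC. The 6 plasmacytoid dendritic cell markers, a cell type rich in ISGs, summed to 12.3 to 18.6 CPM in HSC and 43.9 to 56.5 CPM in HPC, with 3 lower. The 10 T and NK cell markers summed to 105 to 132 CPM in HSC and 289.9 to 384 CPM in HPC, with Nkg7 lower and 5 others higher. Trac, Trbc1 and the B cell marker Ighm had no exons in the files and so no level. The 8 macrophage markers summed to 25.6 to 41.4 CPM in HSC and 40.8 to 59.2 CPM in HPC with 1 lower, and the 10 neutrophil and monocyte markers to 233 to 375 CPM in HSC and 275 to 546 CPM in HPC with 2 lower and Ly6g at 0. The 8 B cell markers summed to 61.9 to 82.6 CPM in HSC and 57.4 to 63.9 CPM in HPC with 2 higher, and the 8 red cell markers to 191 to 467 CPM in HSC and 41.3 to 161 CPM in HPC with 4 higher. The 8 markers of endothelium and stroma summed to 84.2 to 114 CPM in HSC and 142 to 149.6 CPM in HPC, with 3 higher and 1 lower.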

How the data were processed

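RNA-seq of 4 HSC and 4 HPC libraries was compared, with the fraction of each taken from its title. The labels' protocols name ISOGEN for RNA, the SMARTer Pico kit with 18 PCR cycles for cDNA and Nextera XT for libraries. Build mm10 is named in the submitters' processing notes. Aligner, counter and use of strand: not given in the sources used here. Each deposited file gives counts, as whole numbers, for 48737 rows: exon, intron, gene and junction-spanning reads, all reads and uniquely placed ones apart, per the file headers. The deposited RPKM and TPM values, made by the authors, were not tested, and RPKM given here was computed from CPM and exon length.

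Counts were summed per gene ID, since 1931 IDs had several rows. Total exon reads went into edgeR 4.0.16 under R 4.3.3 (filterByExpr defaults, TMM scaling, quasi-likelihood F test, no covariate), with Benjamini-Hochberg adjustment over 12751 genes and a threshold of 0.05. Mx1 and Mx2 were tested on gene reads. The SE is the log2 change over the root of its F value, and folds are ratios of mean CPM. Of exon reads, 81.5% to 85.5% were uniquely placed. The fit was tested on simulated data with a single spread setting for all genes and few changed genes, which does not give the error rate here. No libraries of a fraction looked alike within counting error (mean chi-square per gene 11.6 to 38.7).

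Members and gene lists were chosen with earlier results of these data known. All members were named, with up to 4 called genes of at least 5 CPM and smallest adjusted p per pathway list, the sort markers, and the most abundant gene of each marker list. A few of these are not reported here. Of 258 listed symbols, 7 had no match. Alternatives were RLE and upper quartile scaling, no filter, at least 50 reads in 4 libraries, a replicate block, voom (limma 3.58.1), DESeq2 1.42.0, unique exon, gene, intron and exon-exon reads, main-assembly rows, a tested fold of 1.5, a threshold of 0.01, and leaving out each library or both numbered 4. Unique gene reads for Mx1 and Mx2 were added after seeing the data.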

Additional observations from a re-analysis of the deposited data

Results flagged for a closer look

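Single libraries stood apart from the other 3 of their fraction for 6 of 142 tested sets of 4, where chance picks out about 1 set in 20. Gbp7 had 214.7 CPM in HPC replicate 2, against 169.5 to 177 CPM in the other HPC libraries. Rtp4 had 113.6 CPM in HPC replicate 3, against 136.8 to 138.8 CPM in the others. Among pathway genes, Jak2 had 31.87 CPM in HPC replicate 1, against 51.93 to 55.73 CPM in the others, and Uba7 had 195.8 CPM in HSC replicate 4, against 222.3 to 227.3 CPM. Among markers, Hlf had 206 CPM in HPC replicate 3, against 161 to 168 CPM, and Mpo had 136.1 CPM in HSC replicate 2, against 37.17 to 52.82 CPM. Intron reads of Trim30a, outside the exon reads compared, reached 104393 in HSC replicate 2, far above the exon reads of the gene.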

How the results depend on the processing

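Across the alternatives, 643 of 699 values of the 31 ISGs stayed on the same side of the threshold. Another 47 kept direction but lost a call, 7 gained one, and 2 reversed and lost their call. Values without a call before and after counted as kept even where the sign changed, as for Ifit2, whose changes ran from -0.08 to 0.62. ISGs called higher numbered 15, with 6 on intron reads and 5 at a tested fold of 1.5. ISGs called lower numbered 4, with 2 under upper quartile scaling, total gene reads, exon-exon reads or a threshold of 0.01, and 1 on intron reads or at a tested fold of 1.5. Genes called numbered 4733 of 12751, with 3056 of 15142 on intron reads and 2099 of 12751 at a tested fold of 1.5. At that fold 6 of the 29 ISGs had a call in either direction, against 2099 of all 12751 genes, and 13 ISGs lost theirs. These shares lay closer together than without a tested fold. How the 2099 genes split by direction is not given here. Leaving out 1 library gave 14 to 16 ISGs higher, 2 to 4 lower (2 without HSC replicate 2 or 3, Oas3 and Rtp4 being lost) and 4184 to 4587 genes. Of the named genes called on total exon reads, Oas3 (0.39), Gbp3 (-0.11) and Ly6a (-0.036) reversed on intron reads, none with a call there. The cause was not tested. Same-numbered libraries did not deviate together throughout (correlations of -0.012, -0.118, 0.086 and 0.146), and with the replicate block 20 ISGs had a call, Ifitm2 being added. Upper quartile scaling shifted the median gene by 0.08. Unique reads were too few to test Igtp (1 in HSC, 0 in HPC) and few for Ifit1 (110 in HSC, 70 in HPC); the cause was not tested.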
